A study of Mus musculus with 45 samples.

Results

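The genes of the vascular endothelial growth factor (VEGF) system were followed in mouse hippocampal primary neurons during action potential (AP) firing and during excitotoxic NMDA receptor stimulation. The set held the 5 ligand genes Vegfa, Vegfb, Vegfc, Vegfd and Pgf and the 3 receptor genes Flt1, Kdr and Flt4. Members were matched by gene symbol, and all 8 had a row among the 54532 genes of the count table. The members and the gene lists used below were chosen with earlier results of these data known. RNA was sequenced from 45 libraries, 1 for each of 9 conditions in each of 5 culture preparations, numbered 1, 3, 6, 7 and 8. All cultures came from newborn C57BL/6N mice, received AraC, which limits the growth of dividing cells, and were treated on day in vitro 10 or 11. Control cultures were untreated, and bicuculline (Bic, 50 µM), a GABA type A receptor antagonist that starts AP firing, was given for 0.5, 1 or 2 h. In the short protocol (SP), tetrodotoxin (TTX, 1 µM), the sodium channel toxin that silences AP firing, was added after 0.5 h of Bic for another 0.5 h, either alone or together with NMDA (30 µM). In the long protocol (LP), TTX, TTX/NMDA or the glutamate uptake blocker TBOA (50 µM) was added once 1 h of Bic had passed, and cells were collected 1 h later. By the study's scheme Bic stayed on the cells during these interventions, so every group other than the control was exposed to it. No group received TTX, NMDA or TBOA without Bic. The passive effect compares TTX with Bic of the same total duration, the active effect compares TTX/NMDA with TTX, the total effect compares TTX/NMDA with Bic, and glutamate spillover compares TBOA with 2 h Bic.

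VEGF ligands are secreted dimers that act through receptor tyrosine kinases. VEGF-A, the ligand named for driving blood vessel growth, binds FLT1 (VEGFR-1) and KDR (VEGFR-2), and VEGF-B and placental growth factor (PGF) bind FLT1. VEGF-C and VEGF-D act mainly on FLT4 (VEGFR-3), the receptor of lymphatic vessels, and VEGF-C also acts on KDR after proteolytic maturation. KDR gives the main growth signal, FLT1 binds VEGF-A tightly with weak kinase activity and also exists as a soluble decoy, and the neuropilins NRP1 and NRP2 serve as coreceptors. In nervous tissue these ligands are also known for effects on neurons, among them neuroprotection by VEGF-A and VEGF-B and the support of dendrites by VEGF-D.

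Depth ranged from 11316580 to 81129276 counts on genes per library (median 26239614). No pair of libraries was identical, and the lowest correlation of log counts between libraries of one condition was 0.983. The cultures carried the defining transcripts of neurons, with the sum of 8 neuronal markers between 6437 and 8558 normalized CPM (counts brought to a common library size with trimmed means of M-values) in all 45 libraries. They also contained glia, with a sum of 6 astrocyte markers between 374 and 1429 CPM, and some mural or fibroblast cells, with a sum of 8 markers between 72.4 and 239 CPM. Endothelial cells, the classical site of the receptors, were represented at a low level. The sum of 10 markers was 10.6 to 21.4 CPM, most of it Egfl7 (mean 8.496 CPM). Eng (2.83 CPM), Cdh5 (1.30), Pecam1 (0.702), Emcn (0.504) and Esam (0.423) had reads in all 45 libraries, at means of the order of those of Kdr and Flt1. Tek (0.141 CPM), Tie1 (0.0322), Erg (0.0248) and Cldn5 (0.0138) had no read in 2, 16, 23 and 27 of the 45 libraries. A value in these bulk cultures cannot tell fewer cells of a type from less RNA per cell.

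The members lie on 7 chromosomes in build GRCm38, and none overlaps another annotated gene on either strand. Vegfa spans chr17:46016993-46032369 on the minus strand with 13 annotated transcripts, and Vegfb spans chr19:6982473-6987651 on the minus strand. Vegfc lies at chr8:54077606-54187096 and Vegfd at chrX:164373378-164402650, both on the plus strand. Pgf lies at chr12:85166635-85177790 and Flt1 at chr5:147561604-147726011, both on the minus strand. Kdr is on the same chromosome as Flt1, at chr5:75932827-75978458 on the minus strand, and Flt4 is at chr11:49609263-49652739 on the plus strand. The counts cover whole genes, so the splice forms of Vegfa and the soluble form of Flt1 were not resolved.

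Promoter sequences are shown for Vegfa and Vegfb, the most abundant ligands, which moved in opposite directions under NMDA, and for Flt1, the receptor called in the same comparison. Each line gives the 250 bases before the RefSeq start site (GRCm38.p6), 5′ to 3′ on the strand of the gene. Capitals mark every match, on either strand, to the hypoxia response core (ACGTG), the CREB site (CRE, TGACGTCA), its core (TGACG), the AP-1 site (TGANTCA), the Egr site (GCGNGGGCG), the GC box (GGGCGG), the Npas4-type E-box (TCGTG) and the TATA box (TATAAA), and matches that touch or overlap run together.
Vegfa, chr17:46032378-46032627: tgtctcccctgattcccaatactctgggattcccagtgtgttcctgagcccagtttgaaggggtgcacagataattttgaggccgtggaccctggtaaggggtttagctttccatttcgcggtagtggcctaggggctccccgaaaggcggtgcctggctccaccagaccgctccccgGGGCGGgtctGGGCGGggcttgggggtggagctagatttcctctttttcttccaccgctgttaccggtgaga
Vegfb, chr19:6987652-6987901: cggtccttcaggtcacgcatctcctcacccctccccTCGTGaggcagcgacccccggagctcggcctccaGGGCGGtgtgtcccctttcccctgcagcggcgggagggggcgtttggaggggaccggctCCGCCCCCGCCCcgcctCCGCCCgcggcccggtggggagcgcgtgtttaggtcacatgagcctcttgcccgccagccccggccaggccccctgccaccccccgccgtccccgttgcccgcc
Flt1, chr5:147726012-147726261: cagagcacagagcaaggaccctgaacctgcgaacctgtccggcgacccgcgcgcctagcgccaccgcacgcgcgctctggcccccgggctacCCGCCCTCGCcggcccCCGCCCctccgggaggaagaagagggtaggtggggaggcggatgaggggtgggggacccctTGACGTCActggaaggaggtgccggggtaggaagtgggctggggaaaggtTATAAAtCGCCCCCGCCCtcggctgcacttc

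The Vegfa window held 2 GC boxes and no other of these motifs. The GC box is common, being present in 32.7% of the 32851 promoter windows of the same length. In the Vegfb window there were 4 GC boxes, 1 Egr match that overlaps a pair of them, and 1 E-box match. The Flt1 window was the only one of the 3 with a full CRE, whose first letter lies 81 bases before the start and which is found in 1.5% of all windows. It also held 2 Egr matches (4.7% of all windows hold at least 1), 3 GC boxes and a TATA box. A second annotated start of Vegfa lies inside the gene, where the window held 1 GC box and 1 hypoxia core that overlaps 1 CRE core. A match is a description of these letters and was not tested as a binding site.

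Compared per kilobase of exon, ligand transcripts were far more abundant than receptor transcripts in these cultures. Averaged over the 45 libraries, Vegfb had 27.6 CPM per kb and Vegfa 22.7 CPM per kb. Vegfd followed with 4.602 CPM per kb, Pgf with 0.771 and Vegfc with 0.522 CPM per kb. Kdr was the most abundant receptor at 0.358 CPM per kb, 4.70 times Flt1 (0.0761) and 15.34 times Flt4 (0.0233). In this order the condition means of neighbours did not overlap, except for the pair Vegfb and Vegfa and the pair Pgf and Vegfc, and single libraries overlapped also between Vegfc and Kdr and between Flt1 and Flt4. For Vegfb the condition means lay between 24.5 and 32.3 CPM per kb and for Vegfa between 18.3 and 29.3 CPM per kb, so these ranges overlapped, and Vegfa was above Vegfb in Bic 2 h (29.3 against 27.9) and LP TTX (29.1 against 24.5). Pgf lay between 0.615 and 0.984 CPM per kb and Vegfc between 0.435 and 0.640. Reads for Flt4 were few, from 0 to 16 per library with at least 1 read in 41 of 45 libraries, and Flt1 had between 5 and 114 reads.

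**Figure D1:**
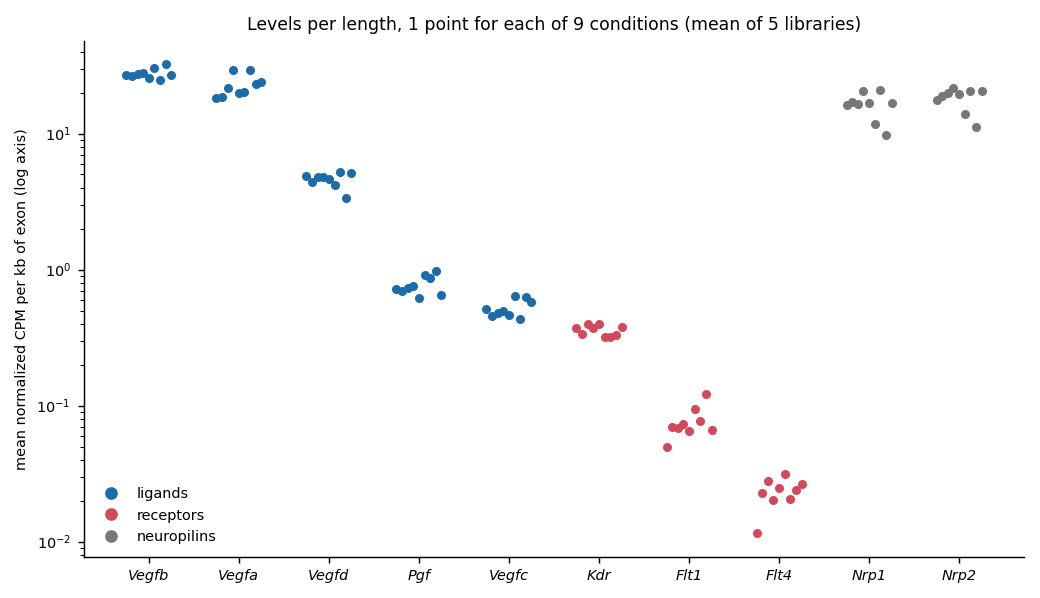
Mean normalized CPM per kb of exon on a log axis for the 8 members and the neuropilins Nrp1 and Nrp2, with 1 point for each of the 9 conditions (mean of 5 libraries). Vegfa and Vegfb lie between 18.3 and 32.3, while the receptors Kdr, Flt1 and Flt4 all lie below 0.5.

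The effect of AP firing was examined with the Bic series. Vegfa was the member that rose. In the control its normalized CPM was 83.0, 75.6, 89.4, 76.1 and 69.0 in preparations 1, 3, 6, 7 and 8, and after 2 h Bic it was 124, 117, 141, 124 and 121. All 5 libraries with 2 h Bic were above all 5 control libraries. The increase was 60% ± 9.86 (SD, n = 5 preparations), with a log2 fold change of 0.66 ± 0.08 (SE) and an adjusted p of 2.1e-06 by edgeR's quasi-likelihood test. Vegfa was the 1 member called of 8 tested in this comparison, in which 8.71% of all genes tested were called.

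Most of the rise of Vegfa fell into the second hour of firing. Mean CPM was 80.1 ± 7.78 (SD, n = 5) after 0.5 h and 92.0 ± 8.63 after 1 h, and the 1 h libraries ranged from 78.4 to 100.4. From 1 to 2 h Bic the log2 fold change was 0.44 ± 0.07 (adjusted p = 0.00027, edgeR), higher in 5 of 5 preparations and without overlap between the groups. Again it was the 1 member called, where 5.09% of all genes passed. After 1 h the log2 difference from the control was 0.22 ± 0.09 (adjusted p = 0.50), with higher levels in 5 of 5 preparations. With culture preparation as a replicate block, this earlier difference passed as well (log2 fold change 0.23, adjusted p = 0.033 by edgeR), in a fit that called 4.17% of all genes. No member passed after 0.5 h (0 of 8, with 0 at an unadjusted p under 0.05 and 0 by DESeq2) or from 0.5 to 1 h (0 of 8, with 1, Vegfa, at an unadjusted p under 0.05 and 0 by DESeq2). Of all genes tested, 0.265% were called after 0.5 h, 1.09% after 1 h (0 of 8 members by edgeR and by DESeq2, 1 at an unadjusted p under 0.05) and 0.595% between 0.5 and 1 h.

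The other members showed no called change during Bic. Vegfb, which had 43.3 ± 3.46 CPM in the control (SD, n = 5), had 44.7 ± 2.52 CPM after 2 h Bic, and the 95% interval of its log2 change ran from −0.12 to 0.20. For Vegfd the means were 11.7 and 11.6 CPM with an interval from −0.29 to 0.23. Pgf (2.10 and 2.20 CPM) and Vegfc (1.26 and 1.22 CPM) overlapped between control and 2 h Bic in the same way. As a result the ratio of Vegfa to Vegfb counts within a library moved from 1.83 ± 0.27 in the control to 2.80 ± 0.13 after 2 h Bic, and the ratios of the groups did not overlap (1.65 to 2.31 against 2.66 to 2.96). Among the receptors, Kdr had 3.34 CPM in both conditions. Flt1 had 0.666 ± 0.284 CPM in the control and 0.986 ± 0.628 CPM after 2 h Bic, which is a log2 difference of 0.42 with an interval from −0.26 to 1.10. Changes of Flt1 within that interval were not detectable at this depth, and for Flt4, with at most 11 reads per library in these groups, the interval was wider still (−0.64 to 1.86).

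**Figure D2:**
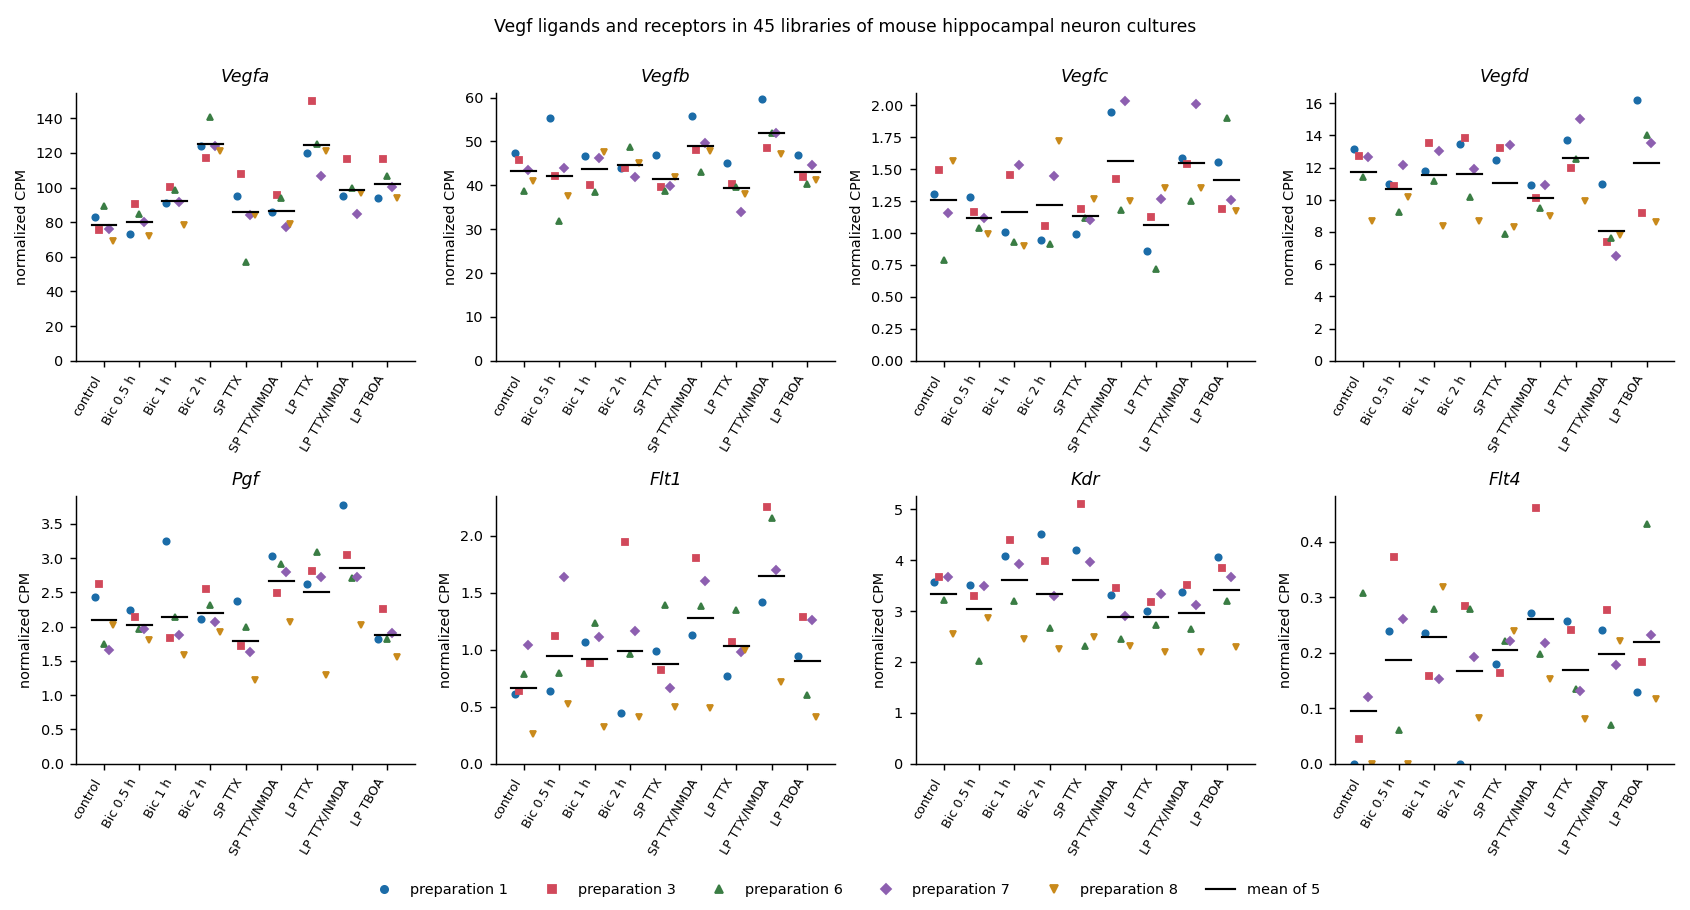
Normalized CPM of each member (1 panel each, linear axes from 0) in the 9 conditions, with 1 symbol per culture preparation and a bar at the mean of 5 libraries. Vegfa rises to 125 CPM after 2 h Bic and in LP TTX, Vegfd is lowest in LP TTX/NMDA (8.08 CPM), and the symbols of Flt1 spread widely within conditions.

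In the SP, which captures interventions during the first hour of firing, no member passed in the main test. TTX left Vegfa at 85.6 ± 18.8 CPM (SD, n = 5) against 92.0 ± 8.63 CPM in uninterrupted Bic for 1 h, a log2 difference of −0.12 with an interval from −0.34 to 0.11. Its lowest library, preparation 6 with 57.0 CPM, lay well below the other 4 (84.0 to 108). None of 8 members was called for the passive effect (0 by DESeq2 and 0 at an unadjusted p under 0.05), where 0.167% of all genes passed.

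For the SP active effect, the largest differences were in Pgf, the FLT1 ligand. It had 2.37, 1.72, 1.99, 1.63 and 1.22 CPM with TTX and 3.04, 2.49, 2.92, 2.79 and 2.07 CPM with TTX/NMDA. It was higher with NMDA in 5 of 5 preparations, although the groups overlapped. The log2 difference was 0.56 ± 0.17 with an adjusted p of 0.058, and with the replicate block it passed (0.60, adjusted p = 0.0066, edgeR). Vegfb was likewise higher in 5 of 5 preparations (41.4 ± 3.29 against 48.9 ± 4.58 CPM, log2 difference 0.23, adjusted p = 0.13 and 0.0062 with the block). Of the 8 members 0 were called by edgeR, 2 by DESeq2 (Pgf and Vegfb), 2 with the block and 3 at an unadjusted p under 0.05, against 4.0% of all genes called and 16.5% with the block. The third was Vegfc, with 1.13 ± 0.103 CPM under TTX and 1.57 ± 0.396 CPM under TTX/NMDA.

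For the SP total effect 0 of 8 members passed by edgeR and by DESeq2 and 1, Kdr, had an unadjusted p under 0.05, against 3.93% of all genes. With the block, which called 27.6% of all genes, Kdr (log2 fold change −0.34, adjusted p = 0.022) and Vegfd (−0.21, adjusted p = 0.049) were lower with TTX/NMDA than with 1 h Bic and Vegfb was higher (0.15, adjusted p = 0.038). Kdr was lower in 5 of 5 preparations, with means of 3.61 ± 0.785 CPM in Bic 1 h and 2.88 ± 0.508 CPM in SP TTX/NMDA (SD, n = 5). Markers of glia and of mural cells were also higher in the fit with the block, and their counts are given with the cell markers below.

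In the LP, the passive effect left Vegfa near its level in 2 h Bic. With TTX its libraries had 120.1, 150.1, 125, 107 and 121 CPM, and the mean of 125 ± 15.9 (SD, n = 5) compared with 125 ± 9.08 in 2 h Bic. The log2 difference was −0.02 with an interval from −0.17 to 0.14. After the first hour of Bic, when TTX was added, the level had been 92.0 CPM, and no library of LP TTX was as low as any of Bic 1 h (107 to 150.1 against 78.4 to 100.4 CPM). That pair was not among the 12 comparisons and is given as levels only. The passive effect called 0 of 8 members (0 by DESeq2, 1 at an unadjusted p under 0.05), where 4.10% of all genes passed. The 1 was Vegfb, lower with TTX in 4 of 5 preparations (44.7 ± 2.52 against 39.4 ± 4.02 CPM, log2 difference −0.20, adjusted p = 0.18), and it passed with the block (−0.21, adjusted p = 0.005), which called 32.1% of all genes.

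The LP active effect, in which NMDA was present in addition to TTX, moved members in both directions. Vegfa and Vegfd fell and Vegfb and Flt1 rose, 4 of 8 members, where 23.5% of all genes tested were called (11.8% higher and 11.7% lower). The median log2 difference was 0.30 over the members and 0.11 over all genes. Vegfa had 95.3, 117, 99.5, 84.8 and 97.1 CPM with TTX/NMDA. Each preparation was lower than its own TTX library by nearly the same share, from −22.3% to −19.7%, although the groups overlapped because preparation 3 was high in both and preparation 7 low in both. The log2 fold change was −0.34 ± 0.085 (adjusted p = 0.0041, edgeR), and the level was 98.7 ± 11.5 CPM where the control had 78.6 ± 7.82 CPM, with overlapping libraries.

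Vegfb had 45.03, 40.3, 39.6, 33.9 and 38.1 CPM with TTX and 59.7, 48.6, 52.0, 51.9 and 47.2 CPM with TTX/NMDA. Every library with NMDA was above every library without it. The log2 fold change was 0.39 ± 0.085 (adjusted p = 0.0013, edgeR), or 32.3% ± 12.7 (SD, n = 5). With these opposite changes the ratio of Vegfa to Vegfb counts went from 3.18 ± 0.38 with TTX to 1.92 ± 0.33 with TTX/NMDA, and its ranges (2.67 to 3.73 and 1.6 to 2.40) did not overlap.

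Vegfd, the ligand that shares FLT4 with Vegfc, showed the largest decrease of any member. Its CPM was 13.7, 11.96, 12.5, 15.01 and 9.93 with TTX and 11.0, 7.41, 7.66, 6.52 and 7.81 with TTX/NMDA. All 5 preparations were lower with NMDA, by a log2 fold change of −0.64 ± 0.13 (adjusted p = 0.00082, edgeR), and only preparation 1 with NMDA reached into the TTX range. Vegfc was on the other side, with 1.07 ± 0.270 CPM under TTX and 1.55 ± 0.291 CPM under TTX/NMDA, higher in 5 of 5 preparations. Its log2 difference of 0.45 ± 0.18 had an adjusted p of 0.073 and passed with the block (0.52, adjusted p = 0.0089, edgeR), where 5 of 7 members and 62.4% of all genes did. For Pgf the values overlapped (2.51 ± 0.6997 and 2.86 ± 0.638 CPM, log2 difference 0.21, adjusted p = 0.49).

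Of the receptors, Flt1 had 0.773, 1.07, 1.35, 0.978 and 1.00 CPM with TTX and 1.42, 2.25, 2.16, 1.70 and 0.720 CPM with TTX/NMDA. It was higher with NMDA in 4 of 5 preparations and lower in preparation 8. The log2 fold change of 0.64 ± 0.23 had an adjusted p of 0.049 (edgeR), just past the threshold, and 0.0036 with the block. Without preparation 3 it was 0.43 (adjusted p = 0.32), without preparation 1 0.64 (0.12), without preparation 6 0.64 (0.092) and without preparation 7 0.60 (0.16), so the call depended on each of these. By DESeq2 its adjusted p was 0.054, and the call was also lost in 1 fit over all 45 libraries. Kdr did not move with NMDA in a way that could be detected (2.89 ± 0.450 and 2.97 ± 0.548 CPM, interval of the log2 difference from −0.27 to 0.34), nor did Flt4 (0.169 and 0.197 CPM, interval from −0.35 to 1.17).

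**Figure D3:**
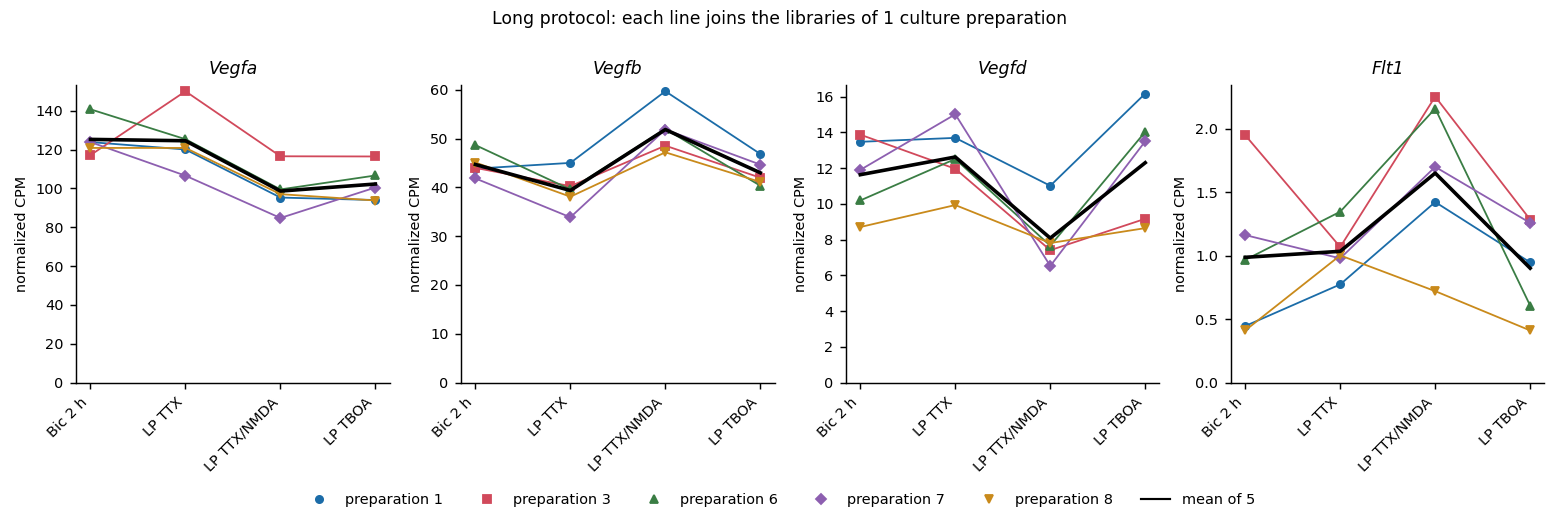
Normalized CPM of Vegfa, Vegfb, Vegfd and Flt1 in 2 h Bic and the 3 LP interventions (linear axes from 0), with 1 coloured line per culture preparation and the mean in black. From LP TTX to LP TTX/NMDA all 5 lines of Vegfa and Vegfd fall and all 5 of Vegfb rise, while Flt1 rises in 4 of 5.

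Against uninterrupted Bic for 2 h, the LP total effect gave the same calls for the falling ligands. Vegfa was lower with TTX/NMDA (log2 fold change −0.36 ± 0.08, adjusted p = 0.0012, edgeR) and no library of one group reached the other (84.8 to 117 against 117 to 141 CPM). In preparation 3, which had the lowest Bic value and the highest TTX/NMDA value, the difference was −0.453%, and in the other 4 it reached down to −31.6%. Vegfd was lower by a log2 fold change of −0.51 ± 0.14 (adjusted p = 0.0073, edgeR) in 5 of 5 preparations. This call was lost without preparation 3 (−0.37, adjusted p = 0.10) or without preparation 7 (−0.41, adjusted p = 0.059). These were 2 of 8 members, against 22.8% of all genes in either direction and 11.0% lower. The fit with the block, which also filtered genes by their reads (filterByExpr), called 56.8% of all genes. It added 3 members with higher levels, Vegfb (0.22, adjusted p = 0.0069), Pgf (0.37, adjusted p = 0.026) and Flt1 (0.72, adjusted p = 0.0073, edgeR), each higher in 5 of 5 preparations. Of these, Vegfb also passed with the filter alone and by DESeq2. Without preparation 8 the main test called the same 3 in addition, with log2 fold changes of 0.23, 0.46 and 0.68. The active and total effects share the TTX/NMDA libraries and so do not support each other.

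Glutamate spillover was examined with TBOA, and Vegfa had the largest difference relative to its error. With TBOA the libraries had 94.1, 117, 107, 100.5 and 93.8 CPM, all below those of 2 h Bic (117 to 141 CPM). The log2 difference was −0.28 ± 0.07, lower in 5 of 5 preparations, with an adjusted p of 0.060 by edgeR and therefore not called. It passed with the block (−0.28, adjusted p = 0.020), by DESeq2 (−0.29, adjusted p = 0.009), with size factors in place of trimmed means (adjusted p = 0.048) and without preparation 3 (−0.37, adjusted p = 0.024), and over all its alternatives the adjusted p ran from 0.009 to 0.46. In all, 0 of 8 members were called by edgeR, 1 by DESeq2 and 1 at an unadjusted p under 0.05, against 0.517% of all genes and 2.76% with the block. Vegfb (43 ± 2.70 CPM) and Vegfd (12.3 ± 3.27 CPM) had log2 differences from 2 h Bic of −0.04 and 0.10. Pgf was lower in 5 of 5 preparations by small amounts (1.87 ± 0.254 against 2.20 ± 0.244 CPM, log2 difference −0.23, adjusted p = 0.72).

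**Figure D4:**
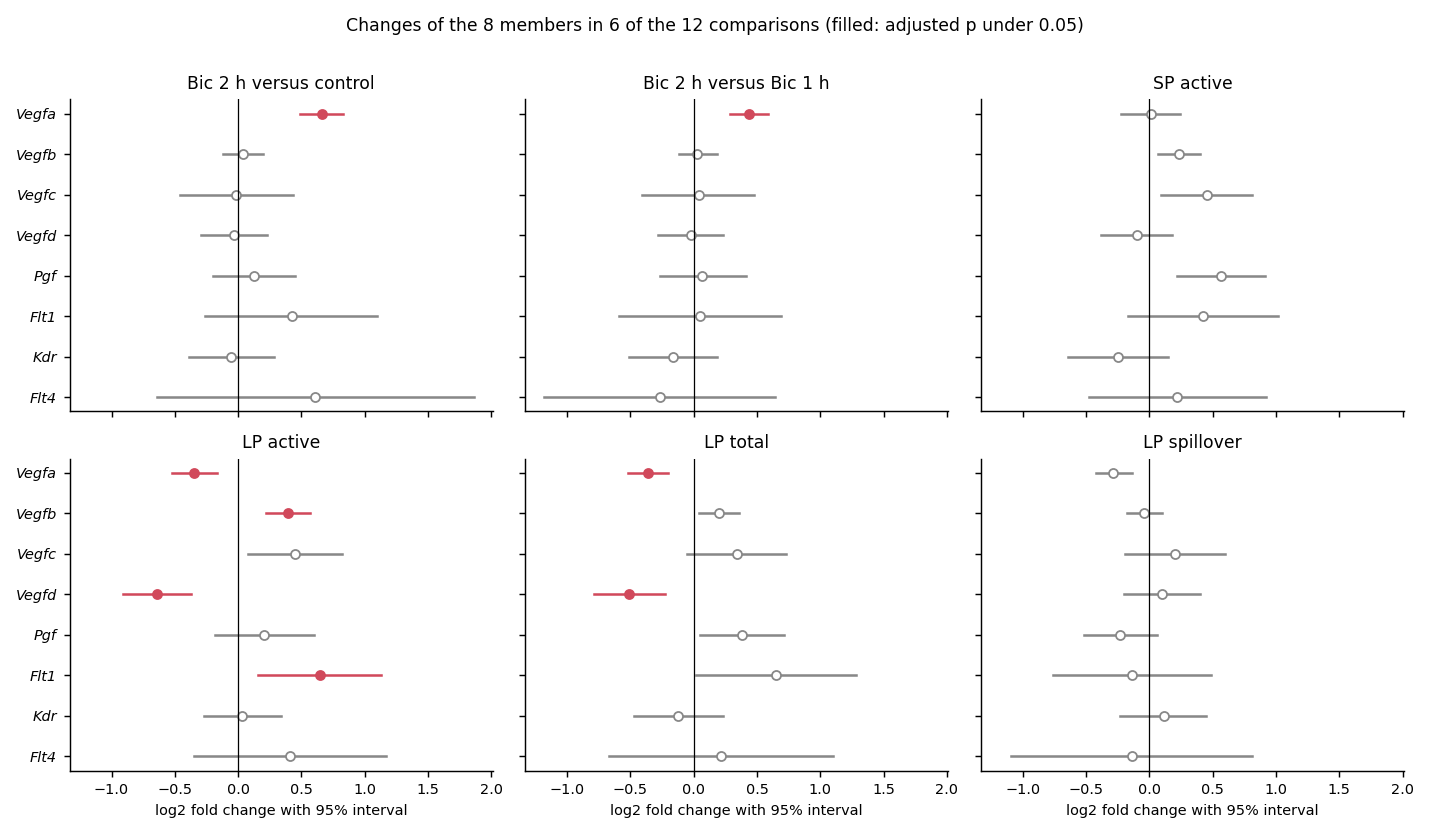
Log2 fold changes of the 8 members with 95% intervals in 6 of the 12 comparisons (x axis, same scale in every panel), filled red where the adjusted p was under 0.05. Vegfa is the one filled point in both Bic panels, and 4 members are filled for the LP active effect.

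Whether the effects differed between the protocols was tested directly as an interaction. The active effect on Vegfa was −0.34 in the LP and 0.01 in the SP, a difference of −0.34 ± 0.15 (log2, SE) with an adjusted p of 0.32. For Vegfd it was −0.64 and −0.10, a difference of −0.52 ± 0.20 (adjusted p = 0.21). With the block, the difference in Vegfd passed (−0.55, adjusted p = 0.020) and that in Vegfa did not (−0.36, adjusted p = 0.053). The total effect on Vegfa differed by −0.26 ± 0.11 (adjusted p = 0.32), and by −0.25 with the block (adjusted p = 0.033). In the main test 0 of 8 members differed in any of the 3 interactions by edgeR or by DESeq2, with 0, 2 and 1 at an unadjusted p under 0.05 for the passive, active and total effects. Of all genes, 0.213%, 2.59% and 1.67% were called in these tests, and the block raised the share to 25.4% (active effect) and 19.5% (total effect).

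Markers of other cells moved with the LP active and total effects and, mostly with the block, with the SP active and total effects. Their values are given beside the changes of Flt1, Vegfc and Pgf, which are also transcribed outside neurons. For the active effect, all 6 astrocyte markers rose, and their sum was 389 to 805 CPM with TTX and 688 to 1429 CPM with TTX/NMDA. Of 8 mural cell and fibroblast markers 6 rose and 0 fell, with sums of 83.8 to 161 and 113 to 239 CPM. In the oligodendrocyte lineage 4 of 6 markers rose, with sums of 99.0 to 166 and 156 to 309 CPM. One of 10 endothelial markers rose, with sums of 10.6 to 15.4 and 14.7 to 21.4 CPM, and 2 of 7 microglial markers (5.58 to 7.43 and 6.46 to 8.94 CPM). Of 3 markers of choroid plexus and ependyma 2 rose, with sums of 13.5 to 33 and 18.2 to 45.4 CPM. Of 8 neuronal markers 4 fell and 0 rose, with sums of 7676 to 8558 and 6674 to 7263 CPM. Without the block, 11.8% of all genes were higher for the active effect and 11.7% lower. With the block, which called 62.4% of all genes, 4 endothelial, 8 mural and fibroblast and 3 choroid plexus markers were higher for the active effect. So were 6 astrocyte, 4 oligodendrocyte lineage and 1 microglial markers. In that fit 2 neuronal markers were higher and 4 lower. For the LP total effect, 6 of 6 astrocyte, 5 of 8 mural and fibroblast, 4 of 6 oligodendrocyte lineage, 1 of 7 microglial, 0 of 10 endothelial and 0 of 3 choroid plexus markers rose and none of these fell. Of the neuronal markers 1 rose and 3 fell, where 22.8% of all genes were called. With the block, which called 56.8%, 6 astrocyte, 7 mural and fibroblast, 4 oligodendrocyte lineage, 2 microglial, 2 endothelial and 1 choroid plexus markers were higher. In that fit 2 neuronal markers were higher and 3 lower. Preparation 8, in which Flt1 was lower with NMDA, had the lowest sum of mural markers in every condition. Within it, from LP TTX to LP TTX/NMDA, the mural sum rose from 83.8 to 113 CPM and the endothelial sum from 10.6 to 14.7 CPM. For the SP total effect, 1 mural and fibroblast marker rose and 2 neuronal markers fell without the block. With it, 7 mural and fibroblast, 4 astrocyte, 2 oligodendrocyte lineage and 2 neuronal markers were higher. Another 2 neuronal markers were lower, and 27.6% of all genes were called. For the SP active effect with the block, 1 mural and fibroblast, 1 astrocyte and 2 neuronal markers were higher and 2 neuronal markers lower. The part of these cells in the changes of the VEGF genes was not tested. After 2 h Bic, where Vegfa rose, no marker of these lists was called in the fit without the block. With the block, which called 29.5% of all genes there, 3 mural and fibroblast, 2 astrocyte, 1 endothelial, 1 oligodendrocyte lineage, 1 choroid plexus and 2 neuronal markers were higher and 1 neuronal marker was lower.

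Of the coreceptors Nrp1 passed in 7 and Nrp2 in 5 of the 12 comparisons, and of the receptors Flt1 in 1 and Kdr and Flt4 in 0. The comparisons called from 0.167% to 23.5% of all genes. The receptors had far fewer reads than the neuropilins, with means of 3.23 CPM for Kdr, 1.03 for Flt1 and 0.192 for Flt4. The numbers of calls therefore do not compare how strongly these genes were regulated. Nrp1, which binds VEGF-A and semaphorins, had 196, 193, 198, 218 and 212 CPM in LP TTX and 86.4, 101.9, 95.3, 92.4 and 99.8 CPM in LP TTX/NMDA. The change within a preparation ranged from −57.6% to −47.3%, with a log2 fold change of −1.11 ± 0.07 (adjusted p = 6.0e-11, edgeR). Nrp2, the partner of VEGF-C and VEGF-D signalling, fell from 243 ± 23.2 to 133 ± 18.2 CPM (−0.88 ± 0.08, adjusted p = 5.3e-08). In the SP the active effect on Nrp1 was −0.53 (adjusted p = 1.1e-05) and on Nrp2 −0.50 (adjusted p = 0.00019). The difference between the protocols was −0.56 ± 0.09 for Nrp1 (adjusted p = 8.6e-05) and −0.37 ± 0.12 for Nrp2 (adjusted p = 0.093, and 0.00041 with the block). After 2 h Bic, in contrast, Nrp1 (log2 fold change 0.34, adjusted p = 0.011) and Nrp2 (0.28, adjusted p = 0.043) were higher than in the control.

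For spillover Nrp1 also fell, from 202 ± 10.3 CPM in 2 h Bic to 165 ± 8.21 CPM with TBOA, with no overlap of the groups (−0.28 ± 0.06, adjusted p = 0.016, edgeR). For Nrp2 the difference was −0.07 (adjusted p = 0.76). Per kilobase the neuropilins were close to the major ligands, with condition means of 9.72 to 20.8 CPM per kb for Nrp1 and 11.2 to 21.8 for Nrp2.

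Adamts3 and Ccbe1, the protease and its cofactor that mature VEGF-C, fell with the neuropilins. Adamts3 had 35.3 to 44.5 CPM in LP TTX and 9.20 to 14.3 CPM in LP TTX/NMDA, a log2 fold change of −1.77 ± 0.10 (adjusted p = 5.2e-11). Ccbe1 went from 14.7 ± 1.04 to 8.41 ± 1.29 CPM (−0.81 ± 0.10, adjusted p = 2.8e-06). Both also fell in the SP active effect, Adamts3 with a log2 fold change of −0.94 (adjusted p = 8.1e-07) and Ccbe1 with −0.53 (adjusted p = 0.00076). Of the 8 coreceptors and extracellular regulators, 4 fell and 0 rose for the SP active effect (median log2 difference −0.26, all genes 0.04), 4 fell and 1, Thbs1, rose for the LP active effect (−0.49, all genes 0.11), and 5 fell and 0 rose for the LP total effect (−0.62, all genes 0.11). Of all genes tested, 4.0% were called for the SP active effect in either direction. For the LP active effect 11.7% were lower and 11.8% higher, and for the LP total effect 11.0% were lower. Thbs1, an inhibitor of vessel growth, was among the 3 that rose after 2 h Bic (0.94 ± 0.20, adjusted p = 0.0024, edgeR), where 8.71% of all genes were called. For the passive effects 0 of the 8 were called without the block. With it 1 was higher and 3 were lower for the LP passive effect, where 32.1% of all genes were called.

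**Figure D5:**
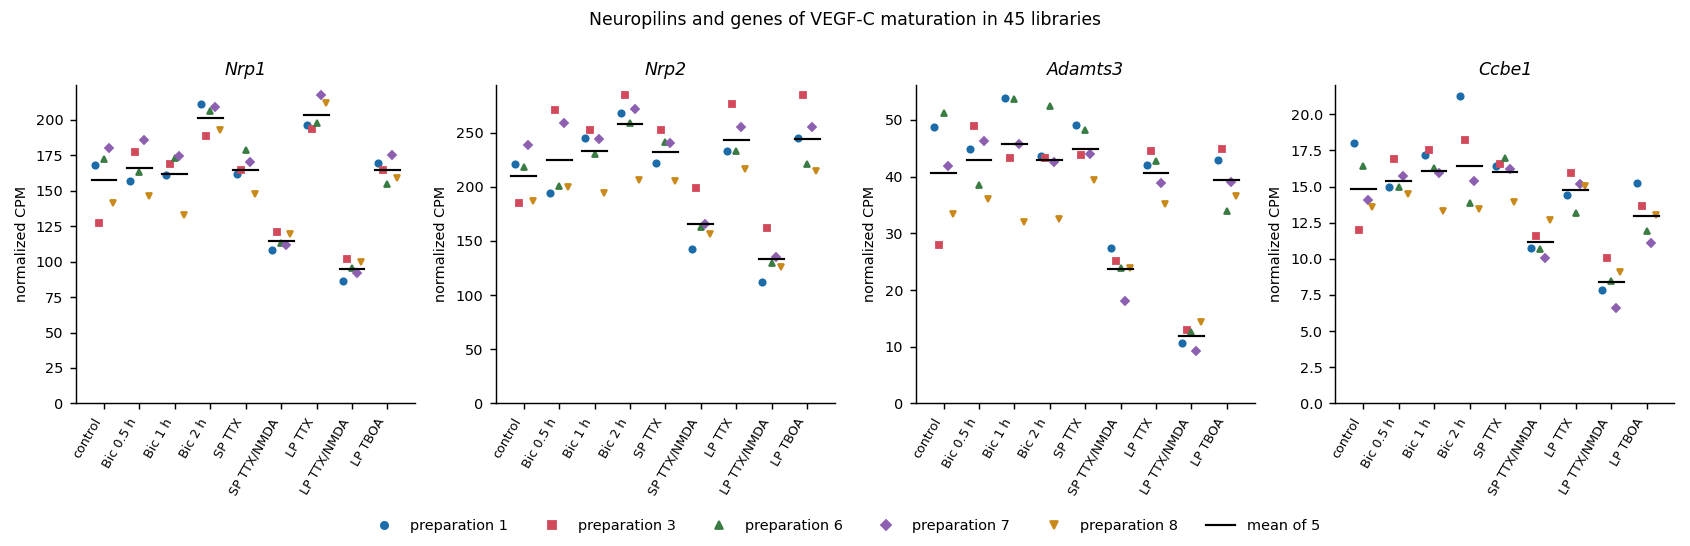
Normalized CPM of Nrp1, Nrp2, Adamts3 and Ccbe1 in the 9 conditions (linear axes from 0), with 1 symbol per culture preparation and a bar at the mean of 5 libraries. All 4 genes are lowest in LP TTX/NMDA (Nrp1 95.1, Adamts3 11.9 CPM) and next lowest in SP TTX/NMDA.

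Genes that carry the signal of the receptors were called in both directions. Of 14 tested signalling genes, 2 rose and 1 fell after 2 h Bic (8.71% of all genes were called), and 6 fell and 0 rose for the LP active effect (median log2 difference −0.09, all genes 0.11), where 11.7% of all genes were lower and 11.8% higher. With the block, which called 62.4% of all genes, 6 were lower and 2 higher for the LP active effect. Pik3r1, the regulatory subunit of PI3 kinase, rose after 2 h Bic (0.50 ± 0.10, adjusted p = 0.0014) and fell for the LP active effect (−0.81 ± 0.08, adjusted p = 1.5e-07). Ptk2, which encodes focal adhesion kinase, fell by 0.54 on the log2 scale (adjusted p = 2.4e-06) and Fyn fell by 0.24 (adjusted p = 0.0024) in the same comparison.

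The hypoxia-inducible factors (HIF) are known regulators of Vegfa. After 2 h Bic, 1 of 10 genes of the HIF pathway was called, against 8.71% of all genes. It was Hif1a, which fell from 119 CPM in the control to 101 CPM after 2 h Bic (−0.25 ± 0.07, adjusted p = 0.035, edgeR). With the block, which called 29.5% of all genes, 2 genes of the list were higher and 3 lower in that comparison. For the LP active effect 3 of the 10 rose and 2 fell (median −0.01), against 11.8% of all genes higher and 11.7% lower. The largest rise was in Epas1, which encodes HIF-2α (17.7 to 34.2 CPM, 0.95 ± 0.12, adjusted p = 5.9e-06). Hif3a (0.77, adjusted p = 0.026) and Egln3, an oxygen-sensing hydroxylase (0.64, adjusted p = 0.015), were the others that rose. Of 15 HIF target genes, 3 rose and 0 fell after 2 h Bic, where 8.71% of all genes were called. These were Slc2a1, the glucose transporter GLUT1 (1.59 ± 0.10, adjusted p = 3.5e-11), Ddit4 (0.66 ± 0.08, adjusted p = 2.1e-06) and Kdm3a (0.28, adjusted p = 0.043), while the median of the list was 0.07 against −0.01 over all genes. For the LP active effect 2 of these targets rose and 4 fell, against 11.8% of all genes higher and 11.7% lower. Among them Kdm3a (−0.65, adjusted p = 4.0e-07) and Pdk1 (−0.61, adjusted p = 6.2e-06, edgeR) fell, while Car9 was higher at a very low level (0.251 to 0.537 CPM).

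Transcription factors and RNA-binding proteins that are known to act on Vegfa were followed as well. Fos, Egr1 and Jun were already higher after 0.5 h Bic (log2 fold changes 3.84, 1.99 and 1.13, adjusted p = 1.1e-20, 2.7e-10 and 7.1e-11), when Vegfa had not changed detectably. For the LP passive effect, in which Vegfa differed by −0.02, 4 of the 11 fell and 1 rose, where 4.10% of all genes were called. Egr1 fell from 1433 to 809 CPM, Jun from 676 to 406 CPM and Zfp36l2 from 11.5 to 6.32 CPM. With the block, which called 32.1% of all genes, 5 were lower and 3 higher. For the LP active effect 3 of the 11 rose and 0 fell, where 11.8% of all genes were higher and 11.7% lower. These were the 3 members of the Zfp36 family, whose proteins promote decay of AU-rich mRNAs. Whether any gene of this list acted on Vegfa in these cultures was not tested. Zfp36l1 went from 5.29 to 13.2 CPM (1.29 ± 0.19, adjusted p = 1.7e-05), Zfp36l2 from 6.32 to 15.4 CPM (1.27 ± 0.14, adjusted p = 3.1e-07) and Zfp36 from 0.767 to 1.31 CPM (0.87 ± 0.22, adjusted p = 0.0049).

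Genes with the most similar pattern were listed for each called member over the 45 libraries, which share culture preparations and conditions. For Vegfa, compared with 5077 genes, these were Slc20a1 (Pearson's r = 0.873), Mxi1 (0.865), Bend4 (0.865), Arid5b (0.855) and Esyt1 (0.852). Vegfb was most like Pdlim7 (0.784), and Gm1673 (0.778), Ndufaf8 (0.766) and Bax (0.755) were also among its most similar genes. For Vegfd they included Acly (0.787), which encodes an enzyme of lipid synthesis, Mgam (0.773), Ak9 (0.751) and Pcdh19 (0.728). Flt1 was most like Angpt2 (0.882), a ligand of the vascular receptor TEK, and then Vtn, Col8a1, Itga1 and Loxl2 (0.816). No other member was among the 5 most similar genes of any of these.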

How the data were processed

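Poly-A RNA was made into strand-specific libraries and sequenced single-end with 75 cycles. The authors aligned the reads with STAR (2.5.4b) to GRCm38 with Ensembl release 94, counted those on the sense strand per gene with featureCounts (1.6.5), with multi-mapping and multi-overlapping reads discarded, and deposited raw counts without normalization. Reads from stretches shared with other genes are therefore lost. Here each comparison was fitted on the whole table with the quasi-likelihood test of edgeR (4.0.16, R 4.3.3, the method of edgeR 4, chosen because the older one made more false calls on simulated counts), with TMM normalization, the 10 libraries of the compared conditions and all genes with at least 1 read in them. P-values are two-sided and were adjusted by Benjamini-Hochberg over all genes tested, with a threshold of 0.05. DESeq2 (1.42.0), the study's own tool, was an alternative. Levels are CPM over TMM effective library sizes of the 45 libraries, divided for levels per kb by union exon length (GENCODE annotation of Ensembl 96). Depth limited Flt1 and Flt4 most, and counting error alone does not cover the spread between preparations.

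The sample titles carry a replicate number, and the paper counts each culture preparation as a replicate. These numbers were therefore read as culture preparations that pair the libraries. Libraries of one preparation deviated together from their condition means (mean r 0.43 across 13592 genes, against −0.11 between preparations), and culture preparation was fitted as a replicate block over genes passing filterByExpr as an alternative. Flt4 did not pass that filter, which left 7 of 8 members. Members and gene lists were chosen with earlier results of these data known. Every member was named. From each pathway list the genes named were the neuropilins and up to 3 called genes with the largest absolute log2 fold change in a comparison, and similar genes were the 5 with the highest Pearson correlation of log2 CPM among genes with a mean of at least 1 CPM and a range of condition means of at least 0.5. One symbol of the HIF targets, Aldoa, matched more than 1 identifier and was left out. Some of these similar genes are not reported here.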

Additional observations from a re-analysis of the deposited data

Results flagged for a closer look

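Among 72 groups of 5 libraries (8 members in 9 conditions), 3 held a library whose distance to its nearest neighbour took up most of the range of its group. Chance marks about 1 in 20 groups, or 3.6 of 72, close to the number found. In Bic 2 h, preparation 6 had 140.8 CPM of Vegfa where the other 4 had 117.2 to 123.9 CPM. In LP TTX/NMDA, preparation 1 had 11.01 CPM of Vegfd where the others had 6.52 to 7.81 CPM. In LP TTX, preparation 8 had 1.299 CPM of Pgf where the others had 2.62 to 3.09 CPM.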

How the results depend on the processing

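Of the fold changes of members under alternatives, 205 kept their side of the threshold, 29 newly passed, 8 no longer passed and 0 changed sign, and 72 mean levels moved by less than 1 SD with size factors in place of trimmed means. Of the counts of called members, 148 stayed within 1.5 times the main count and 17 did not. With the replicate block over genes passing filterByExpr, the count went from 0 to 1 for Bic 1 h versus control, to 2 for SP active, to 3 for SP total, to 1 for LP passive and to 1 for spillover, from 2 to 5 for LP total, and from 0 to 1 for the differences between LP and SP in the active and in the total effect, and the block changed no other count by over 1.5 times. DESeq2 called 2 members for SP active and 1 for spillover, 1 fit over all 45 libraries called 1 for SP active, and size factors or edgeR's older quasi-likelihood method (added after seeing the data) each called 1 for spillover. When 1 preparation was left out, LP total counted from 1 (without 3 or 7) to 5 (without 8) and spillover from 0 to 1 (without 3). The cause of these shifts was not tested. Depth limits the rare receptors: Flt1 had as few as 5 reads and Flt4 0 in a library, and their intervals include changes of the size seen in Vegfa.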
